A study of Mus musculus with 8 samples.

Results

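The miR-148 and miR-152 family was followed in the livers of WT and Snd1 KO mice. Its 6 members are the 3p and 5p arms of the 3 hairpins miR-148a, miR-148b and miR-152, taken by their names, and all 6 were listed in each of the 8 libraries. They are 6 of 1341 known mature miRNAs listed in at least 1 library. Small RNA was sequenced from 4 WT and 4 KO male mice, with 1 library per mouse made from the left lobe of the liver. All animals were of the strain C57BL/6N, 8 to 12 weeks old, not fasted and sampled at around noon. The KO mice lack the first exon of Snd1 in every tissue, since the floxed allele was deleted in the germline by a CAG-Cre mouse. They were backcrossed to C57BL/6N after targeting in 129/Sv stem cells, and littermates of heterozygous breeding pairs were used. Snd1 mRNA is not part of such libraries, so the genotype could not be checked here. Levels are given as CPM, the tags of a miRNA in every 1000000 that the library holds, with no division by length.

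A miRNA hairpin is cut by Drosha and Dicer to a duplex, of which the guide arm is loaded into Argonaute and finds mRNAs through its seed, while the passenger arm is mostly degraded. In this family the 3p arms are the guides. miR-148a is abundant in hepatocytes, where it is known to lower the LDL receptor and the cholesterol transporter ABCA1, and the family is known to act on the DNA methyltransferase DNMT1. Snd1, also called Tudor-SN, is a nuclease that takes part in the decay of some miRNAs, for which cuts at CA and UA dinucleotides were described in human cells.

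The mature sequences are shown because they carry what the members share and what parts them (RefSeq, build GRCm38.p6; all 6 members were found by name). They are written 5′ to 3′ with the seed, bases 2 to 8, in capitals.
mmu-miR-148a-3p: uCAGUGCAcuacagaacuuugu
mmu-miR-148b-3p: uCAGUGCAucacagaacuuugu
mmu-miR-152-3p: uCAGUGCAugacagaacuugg
mmu-miR-148a-5p: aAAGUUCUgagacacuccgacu
mmu-miR-148b-5p: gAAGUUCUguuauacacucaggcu
mmu-miR-152-5p: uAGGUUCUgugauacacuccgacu
The 3 guides have the same seed, and so form 1 targeting family. No other mature miRNA among the 1679 names of the table has this seed. These names include 1137 of the 1341 known miRNAs listed here, and the seeds of the rest were not checked. Of the 22 bases of miR-148a-3p, 20 are the same in miR-148b-3p, and the changes are C9U and U10C, counted from the 5′ end. From miR-148a-3p to miR-152-3p the changes are C9U, U10G and U20G over 21 bases. The guides are thus told apart by 2 or 3 bases of the tag. How many mismatches were allowed when tags were assigned is not given in the sources used here. Among the passenger arms, miR-148a-5p and miR-148b-5p share a seed and miR-152-5p has another.
In miR-148a-3p, miR-148b-3p and miR-152-3p, CA and UA occur 4, 4 and 3 times on the RNA strand, and in miR-148a-5p, miR-148b-5p and miR-152-5p 1, 4 and 3 times. At least 1 is found in 90.8% of the 1679 mature sequences and at least 4 in 18.0%, with a median of 2. These are counts of letters, and no cleavage was measured.

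The hairpins are shown with both mature arms in capitals, to place the arms whose ratio is described further on.
Mir148a: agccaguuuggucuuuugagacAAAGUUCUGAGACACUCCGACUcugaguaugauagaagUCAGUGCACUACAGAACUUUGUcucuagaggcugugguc
Mir148b: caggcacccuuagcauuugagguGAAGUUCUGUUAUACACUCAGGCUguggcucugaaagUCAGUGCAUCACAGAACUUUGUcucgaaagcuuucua
Mir152: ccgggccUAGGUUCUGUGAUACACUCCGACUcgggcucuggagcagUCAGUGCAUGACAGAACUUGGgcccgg
In GRCm38, Mir148a lies on the minus strand of chromosome 6, at chr6:51269812-51269910. It overlaps no annotated gene, and the nearest protein-coding gene, Nfe2l3, is 162.8 kb away. Mir148b, at chr15:103285125-103285221 on the plus strand, lies in an intron of Copz1. Mir152, at chr11:96850393-96850465 on the plus strand, lies in an intron of Copz2. Copz1 and Copz2 are paralogs that encode zeta subunits of the COPI coat, and both are read in the same direction as the hairpin inside them. Mir148a is on the chromosome of the deleted gene, 22.3 Mb from the end of Snd1.

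The libraries held 16223610 to 27526162 tags, so 1 tag corresponded to 0.0363 to 0.0616 CPM. Known miRNAs took 75.9 to 78.7% of the tags in 4 libraries (WT replicates 1, 2; KO replicates 2, 3), called here the libraries of higher share. In the other 4, called those of lower share, they took 57.9 to 67.6%. For KO replicate 1 the tags outside the RNA classes, such as those from introns and repeats, are not listed. The hepatocyte miRNA miR-122-5p had 206141 to 351742 CPM. The markers of pancreas, another tissue rich in miR-148a, summed to 11.4 to 23.4 CPM.

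miR-148a-3p made up most of the family in every liver. Its share of the summed guide arms was 85.3 to 94.0%, against 2.83 to 9.71% for miR-152-3p and 1.43 to 5.29% for miR-148b-3p. By level it ranked between 38 and 64 among the known miRNAs of a library. miR-152-3p ranked between 111 and 167, miR-148b-3p between 147 and 277, and miR-148a-5p between 186 and 412.
By mean level the order was miR-148a-3p, miR-152-3p, miR-148b-3p, miR-148a-5p, miR-152-5p and miR-148b-5p, and their lengths of 21 to 24 bases are too alike to change it. Any effect of adaptor ligation and PCR on the order of different sequences was not tested. miR-148a-3p exceeded miR-152-3p by 9.04 to 33.3 times in the same library, and their ranges over the 8 libraries did not overlap. miR-152-3p and miR-148b-3p overlapped: miR-152-3p was the higher in 7 libraries and the lower in KO replicate 3, at 49.9 against 55.6 CPM. miR-148b-3p was above miR-148a-5p in all 8 libraries, but their ranges over libraries overlapped. miR-148a-5p stood above miR-152-5p with no overlap, the closest being KO replicate 3 with 1.51 and 1.16 CPM. The rarest pair, miR-152-5p and miR-148b-5p, overlapped and changed places in KO replicate 1.

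**Figure D1:**
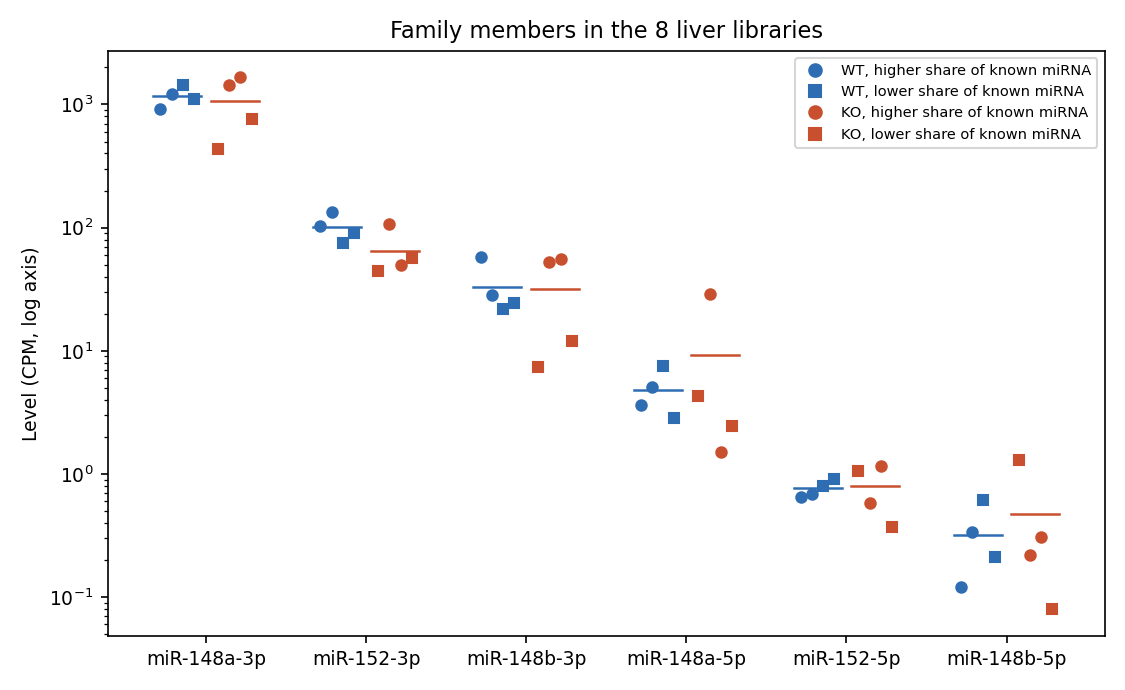
Level of each family member in the 8 libraries, in CPM on a log axis; points are libraries (circles, higher share of known miRNA; squares, lower share), horizontal lines are the means of 4 mice. The miR-148a-3p points lie between 435 and 1660 CPM, above all points of the other members, and for each member the KO points spread over a wider fold range than the WT points.

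No tested member passed the test for a difference between the genotypes. The test took in known miRNAs with 1 CPM or more in no fewer than 4 libraries. These were 475 miRNAs, and 4 of the 6 members, the 3 guides and miR-148a-5p, were among them. On log2(CPM + 1), limma with Benjamini-Hochberg adjustment called 0 of the 4 members and 0 of the 475 (0% called). At an unadjusted p under 0.05 it had 0 of the 4 members and 20 of the 475 (4.21%), and limma-voom on recovered tags had 0 and 19. The median log2 fold change over the 475 was -0.11. For the 4 members the KO values overlapped the WT values, while 2.95% of the 475 had no overlap. In liver tissue, fewer cells that hold a miRNA and less of it per cell cannot be told apart.

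miR-152-3p came closest to a difference. It had 102.2, 134.8, 74.7 and 90.9 CPM in WT replicates 1 to 4 and 44.4, 106.95, 49.9 and 56.9 CPM in KO replicates 1 to 4. In 3 KO livers it was below the lowest WT liver, and KO replicate 2 stood within the WT range. WT livers had a mean of 100.7 ± 25.4 CPM (SD, n = 4) and KO livers one of 64.5 ± 28.7 (SD, n = 4). The log2 fold change was -0.69 (SE 0.35, 95% interval -1.48 to 0.10, adjusted p = 0.842 from limma). The value stayed negative under all 17 alternatives, between -0.96 and -0.54, with adjusted p-values of 0.318 to 0.996. Its unadjusted p was 0.0802 in limma, 0.0178 without KO replicate 2 and 0.0372 with the share of known miRNA as covariate. Under the other alternatives it was 0.0605 (without WT replicate 3) to 0.198 (without WT replicate 2). With the covariate 65 of 475 miRNAs had an unadjusted p under 0.05, and without KO replicate 2, the KO liver within the WT range, 18 of 466. Within the libraries of higher share of known miRNA the log2 difference was -0.68, with KO replicate 2 (106.95 CPM) above WT replicate 1 (102.2 CPM). Within those of lower share it was -0.70, with both KO livers below both WT livers, as for 31.8% of the 475.

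miR-148a-3p, the guide that dominates the family, had means close to each other and a wide spread among the KO livers. It had 924.6, 1225, 1440.0 and 1100 CPM in WT replicates 1 to 4 and 435, 1437, 1660 and 762 CPM in KO replicates 1 to 4. KO replicates 1 and 4 were below every WT liver, KO replicate 3 was above every WT liver, and KO replicate 2 lay at the top of the WT range. WT livers had a mean of 1172 ± 217 CPM (SD, n = 4) and KO livers one of 1074 ± 572 (SD, n = 4), and the range was 1.56-fold in WT and 3.82-fold in KO. The log2 fold change was -0.29 (SE 0.42, 95% interval -1.22 to 0.63, adjusted p = 0.971 from limma). Without KO replicate 1 it turned to 0.077.

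miR-148b-3p, the rarest guide, was as divided. In WT replicates 1 to 4 it had 57.4, 28.6, 21.9 and 24.3 CPM, and in KO replicates 1 to 4 it had 7.32, 52.6, 55.6 and 12.1 CPM. Again KO replicates 1 and 4 were below every WT liver, while KO replicates 2 and 3 stood near the highest WT liver. WT livers had a mean of 33.0 ± 16.5 CPM (SD, n = 4) and KO livers one of 31.9 ± 25.7 (SD, n = 4). On the log scale, where low values weigh more, the fold change was -0.40 (SE 0.65, 95% interval -1.86 to 1.06, adjusted p = 0.971 from limma). It was 0.11 without KO replicate 1, and -0.10 and -0.11 without WT replicate 1 and KO replicate 4.

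**Figure D2:**
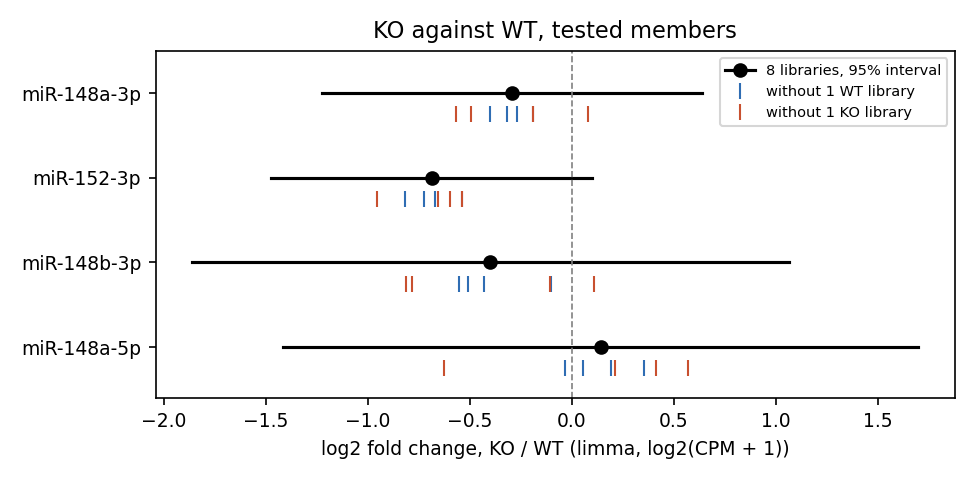
Log2 fold change of KO against WT for the 4 tested members (limma on log2(CPM + 1)); dots and lines are the estimates and 95% intervals from 8 libraries, ticks are the estimates with 1 library left out. Each interval includes 0, and the ticks stay on the negative side for miR-152-3p alone.

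With the guides summed, the seed they share had 1084, 1388, 1537 and 1215 CPM in WT replicates 1 to 4, and 487, 1596, 1766 and 831 CPM in KO replicates 1 to 4. The KO livers thus held both the lowest and the highest sums, with a mean of 1306 ± 198 CPM for WT (SD, n = 4) and 1170 ± 610 for KO (SD, n = 4). Per 1000000 known miRNA tags the sums ran from 1386 to 2454 in WT and from 840 to 2275 in KO, where the highest was a WT liver. No test was made on the sum.

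Between the libraries of higher and of lower share of known miRNA, the KO to WT difference changed sign for miR-148a-3p, miR-148b-3p and miR-148a-5p. For miR-152-3p it had the same sign in both, with overlap of the genotypes in the libraries of higher share. Within the libraries of higher share, both KO livers exceeded both WT livers for miR-148a-3p, with a log2 difference of 0.54, as was so for 27.4% of the 475 miRNAs. Within those of lower share, both KO livers were below both WT livers, with a log2 difference of -1.13, and 31.8% of the 475 did so. Both together held for 4.84% of the 475. For miR-148b-3p the values were 0.41, with overlap, and -1.21, without. For miR-148a-5p they were 0.71 and -0.43, with overlap in both. The difference between these contrasts, as the interaction of genotype and share in limma, was 1.66 (SE 0.47, unadjusted p = 0.00785, adjusted p = 0.640) for miR-148a-3p. It was 1.61 (SE 0.59, unadjusted p = 0.0266, adjusted p = 0.640) for miR-148b-3p and 0.03 (SE 0.59, adjusted p = 0.993) for miR-152-3p. For miR-148a-5p it was 1.13 (SE 1.42, adjusted p = 0.884). This test was chosen after the values were seen and rests on 2 libraries in each cell. It called 0 of 475 miRNAs (0%), and 6.53% had an unadjusted p under 0.05, 2 of the 4 members among them. The median interaction over the 475 was 0.27, and 327 of the 475 were above 0. Scaled to known miRNA tags the interactions of miR-148a-3p and miR-148b-3p were 1.62 and 1.60 (adjusted p = 0.664 and 0.686).

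**Figure D3:**
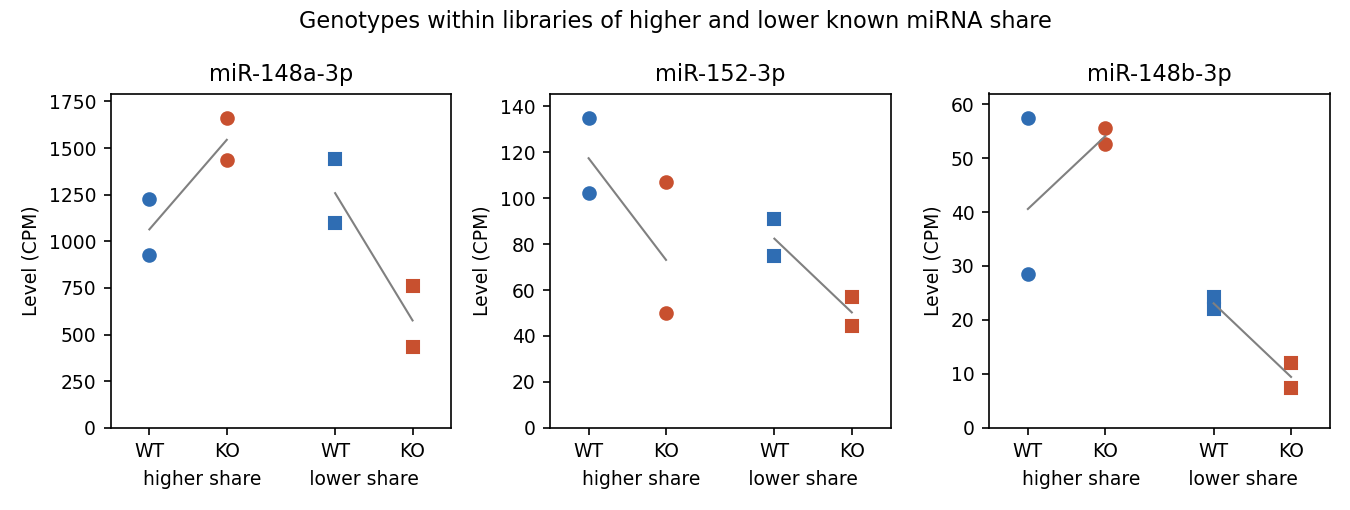
Levels of the 3 guide arms in CPM, from 0, by genotype within the 4 libraries of higher and the 4 of lower share of known miRNA; points are libraries and grey lines join the means of log2(CPM + 1), turned back to CPM. For miR-148a-3p and miR-148b-3p the line rises on the left and falls on the right, and for miR-152-3p it falls in both, with differences of -0.68 and -0.70 on the log2 scale. On the left the genotypes overlap for miR-148b-3p and miR-152-3p.

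miR-148b-3p was also higher in the libraries of higher share. It had 28.6 to 57.4 CPM in the 4 libraries of higher share and 7.32 to 24.3 in the 4 of lower share, with no overlap, and 9.68% of the 475 were separated in this direction. Scaled to known miRNA tags the ranges were 36.3 to 73.4 and 12.6 to 35.9, which nearly meet, and 6.53% of the 475 were separated. miR-148a-3p and miR-152-3p overlapped between these libraries, with 925 to 1660 against 435 to 1440 CPM and 49.9 to 134.8 against 44.4 to 90.9 CPM. The summed markers of several cell types were separated in the same way, each sum being carried by 1 abundant miRNA. The endothelial markers, miR-126a-3p and miR-126a-5p, summed to 12518 to 19516 CPM in the libraries of higher share and 5812 to 6653 CPM in the others, but miR-126a-5p, at 315 to 705 and 171 to 404 CPM, overlapped. The erythroid markers (4 of 4 tested, led by miR-451a) summed to 13338 to 17397 and 7363 to 9826 CPM. Of these, miR-486a-5p, at 62.5 to 245 and 79.1 to 319 CPM, and miR-144-3p, at 10.9 to 35.8 and 7.83 to 34.1 CPM, overlapped. So did miR-144-5p, at 1.06 to 2.83 and 0.25 to 1.5 CPM. The hepatocyte markers, led by miR-122-5p, summed to 327495 to 382815 and 244947 to 298928 CPM. Of the other hepatocyte markers, miR-122-3p was separated the other way, at 1290 to 2062 and 2108 to 2792 CPM. Overlap was seen for miR-192-5p (20948 to 30857 and 22982 to 29369), miR-194-5p (6905 to 14568 and 2678 to 14103) and miR-802-5p (28.6 to 123.9 and 25.3 to 34.4). The 6 leukocyte markers overlapped, at 1127 to 1887 and 1408 to 1640 CPM, as did the 5 stellate and mesenchymal ones, at 6299 to 9857 and 6292 to 9195 CPM, and the 5 biliary ones, at 308 to 492 and 217 to 427 CPM. Their part in the levels of miR-148b-3p was not tested.
Between the genotypes the marker sums overlapped. They were 6236 to 19516 CPM in WT and 5812 to 17880 in KO for the endothelial markers, and 8089 to 17397 and 7363 to 15235 CPM for the erythroid ones. The leukocyte markers summed to 1127 to 1764 CPM in WT and 1408 to 1887 in KO, the stellate and mesenchymal ones to 6292 to 9195 and 7331 to 9857, and the biliary ones to 272 to 492 and 217 to 377. Hepatocyte markers summed to 244947 to 374974 and 252393 to 382815 CPM, with miR-885-5p at 0, and muscle markers to 2.76 to 8.60 and 4.85 to 7.20.

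The passenger arms were rare. miR-148a-5p had 3.63, 5.12, 7.58 and 2.83 CPM in WT replicates 1 to 4 and 4.28, 29.1, 1.51 and 2.45 CPM in KO replicates 1 to 4. KO replicate 2 stood far above all other livers, and the other KO livers reached from below the lowest to within the WT values. WT livers had a mean of 4.79 ± 2.09 CPM (SD, n = 4) and KO livers one of 9.33 ± 13.2 (SD, n = 4), and the log2 fold change was 0.14 (SE 0.70, 95% interval -1.42 to 1.70, adjusted p = 0.971 from limma). Without KO replicate 2 it was -0.63.
Between mice of the same genotype, miR-148a-5p and miR-148b-3p were among the more variable miRNAs, with a residual SD on the log2 scale of 1.18 and 1.09, above that of 94.5 and 92.6% of the 475 when the miRNA itself is counted. For miR-148a-3p and miR-152-3p it was 0.66 and 0.47, at 67.4 and 42.9%. This residual SD pools the genotypes. By genotype, the SD of miR-148a-5p was 0.51 in WT and 1.60 in KO livers, and that of miR-148b-3p 0.61 and 1.41.
Below the minimum for the test were miR-148b-5p and miR-152-5p, with 1 and 2 libraries at 1 CPM. miR-148b-5p had 0.12, 0.34, 0.62 and 0.21 CPM in WT replicates 1 to 4 and 1.29, 0.22, 0.31 and 0.08 CPM in KO replicates 1 to 4, from 2 to 28 tags. miR-152-5p had 0.65, 0.69, 0.80 and 0.91 CPM in WT and 1.06, 0.58, 1.16 and 0.37 CPM in KO, from 9 to 30 tags. In both, the KO livers held the lowest and the highest value.

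In each hairpin the 3p arm was the main product. The miR-148a hairpin gave 49.4 to 1099 tags of the 3p arm for each tag of the 5p arm. The 5p arm took 0.26 to 0.52% of its tags in WT, and 0.98, 1.98, 0.09 and 0.32% in KO replicates 1 to 4. The exact 95% intervals were 1.85 to 2.12% for KO replicate 2 and 0.0645 to 0.124% for KO replicate 3. Thus 2 KO livers stood above the WT livers and 1 below. limma on the log2 ratio of the 5p to the 3p arm gave a difference of 0.44 for miR-148a (SE 0.71, adjusted p = 1.000), and -0.13 without KO replicate 2. Over 125 hairpins with both arms tested it called 0 (0%), and 1.60% had an unadjusted p under 0.05. The residual SD of this ratio was at 88.8% of the 125 and its mean at 5.60%. Hairpins with an arm below the minimum, such as miR-148b and miR-152, are not among the 125. Without the filter there were 473 hairpins, so the 5.60% gives no rank among all of them.
In the miR-148b hairpin, KO replicate 1 stood apart. There 28 tags came from the 5p arm and 159 from the 3p arm, a 5p share of 14.97% with an exact 95% interval of 10.2 to 20.9%, against 0.21 to 2.73% in the other 7 libraries. It was the liver with the least miR-148b-3p and the most miR-148b-5p. For the miR-152 hairpin the 5p arm took 0.51 to 1.06% in WT. It took 2.33 and 2.27% in KO replicates 1 and 3, above all WT livers, and 0.54 and 0.65% in KO replicates 2 and 4, within the WT values. Intervals are for counting error only, since tags are PCR reads without molecular identifiers.

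**Figure D4:**
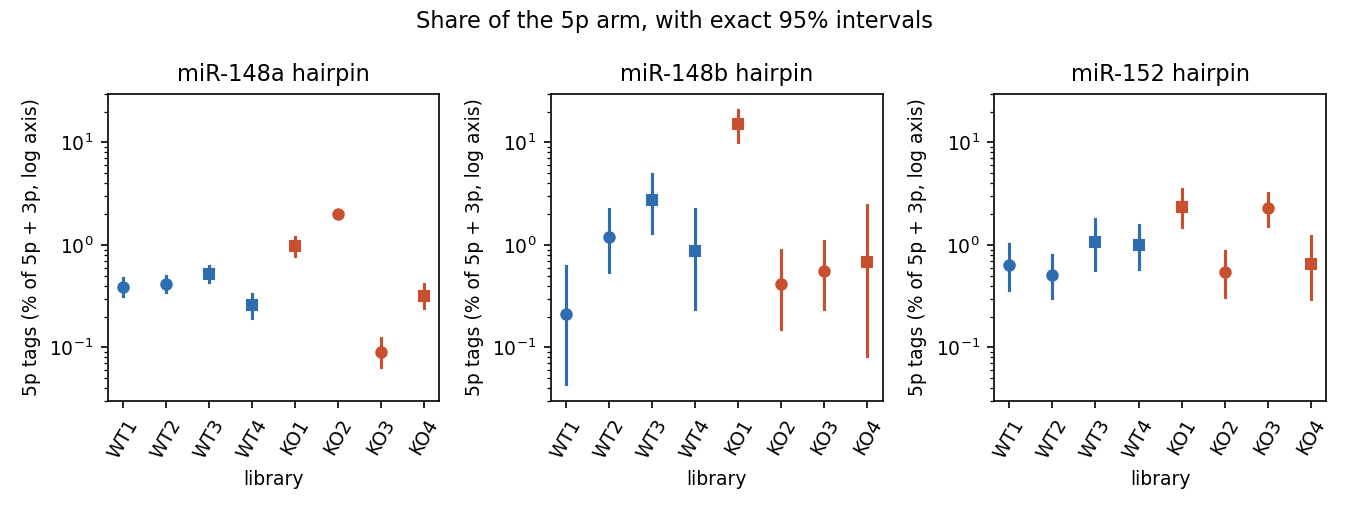
Share of 5p tags among the 5p and 3p tags of each hairpin, in percent on a log axis, for the 8 libraries; circles are libraries of higher and squares of lower share of known miRNA, and vertical lines are exact 95% intervals. KO replicate 1 is at 14.97% in the miR-148b hairpin, and KO replicates 2 and 3 are the highest and the lowest in the miR-148a hairpin, at 1.98 and 0.09%.

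The guides resembled each other to unequal degrees over the livers. On log2(CPM + 1) over the 8 libraries, Pearson's r was 0.78 between miR-148a-3p and miR-148b-3p, 0.52 between miR-148b-3p and miR-152-3p, and 0.44 between miR-148a-3p and miR-152-3p. Between the arms of the miR-148a hairpin it was 0.23. The values share their libraries and depths and are given as a description. Many tested miRNAs outside the family were more alike. By r with miR-148a-3p, miR-148b-3p ranked 15 and miR-152-3p 132 among the tested miRNAs. By r with miR-148b-3p, miR-148a-3p ranked 50 and miR-152-3p 126. With miR-152-3p, the ranks of miR-148b-3p and miR-148a-3p were 83 and 114. Outside the family, the 3 tested miRNAs most like miR-148a-3p were miR-201-5p, miR-224-5p and miR-24-1-5p (r = 0.97, 0.94 and 0.89), all with mean levels under 6 CPM. The most like miR-148b-3p were miR-34a-5p, miR-187-3p and miR-25-3p (r = 0.95, 0.95 and 0.94). For miR-152-3p they were miR-27a-3p, miR-28a-3p and miR-23a-3p (r = 0.89, 0.87 and 0.87), of which miR-23a and miR-27a come from 1 cluster. For miR-148a-5p they were miR-222-5p, miR-214-5p and miR-129-5p (r = 0.73, 0.71 and 0.71).

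Other miRNAs that act on cholesterol and lipoprotein genes did not pass the test either, as was so for all 475 miRNAs tested. Of 15 on the list, 13 were tested, with 10 log2 fold changes below 0 and 3 above. Their median was -0.45, beside -0.11 over all 475, and 0 were called. By level miR-122-5p led the list, and limma gave it 0.14 on the log2 scale (SE 0.21, adjusted p = 0.971). It was followed by miR-27b-3p and miR-27a-3p, with log2 fold changes of -0.25 and -0.24, and miR-185-5p, with -0.51. The 3 miR-29 guides, which act on DNA methyltransferases as the miR-148 guides do, were below 0 in 3 of 3 cases. Their median was -0.63 on the log2 scale, beside -0.11 over all 475. As over all 475, 0 were called (lowest adjusted p = 0.853 from limma).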

How the data were processed

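Small RNA of 18 to 30 bases was sequenced by the authors (BGISEQ-500), and tags were mapped with Bowtie (version not given in the sources used here) to GRCm38, per the submitters' processing notes. The deposited values, headed TPM, are CPM of the whole library made by the authors, who compared genotypes with DEGseq, which pools tags within a genotype. Here the mice were kept apart: log2(CPM + 1) of the known mature miRNAs that reached 1 CPM in 4 or more libraries (475 of 1341) was compared with limma 3.58.1 (R 4.3.3), using its trended variance prior, at an adjusted p of 0.05. Repeated rows were summed and missing names set to 0. For each library the total was found that made 100% of its values whole tags, within 0.0051 CPM; depths and tag numbers rest on it. The fits were tested on simulated data. The members, marker lists and pathway lists were chosen with earlier results of these data known. Named were the members, the 3 miRNAs most like each tested member, and the most abundant of the cholesterol list. Pseudocounts, filters, scalings, the replicate number as a block, the library share as covariate and each library left out were tried. limma-voom on recovered tags and the interaction were added after seeing the data.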

Additional observations from a re-analysis of the deposited data

Results flagged for a closer look

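Among 20 groups of 4 libraries checked over the members, the 5p shares and the guide sum, 2 held 1 outlying library. By chance about 1 in 20 groups does so if its values are normally distributed. The CPM and percentages were not put on a log scale and the groups share values, so that rate is only a guide. miR-148a-5p had 29.06 CPM in KO replicate 2 and 1.51 to 4.28 CPM in the other KO livers. This was the second largest rise of KO replicate 2 over the median of the other libraries among the 475 tested miRNAs, by 2.70 on the log2 scale, and rests on 800 tags. The 5p arm took 14.98% of the miR-148b CPM in KO replicate 1, from 28 tags, and 0.42 to 0.66% in the other KO livers.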

How the results depend on the processing

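Under 17 alternatives 0 members were called, and adjusted p-values of the 4 tested members were 0.318 to 0.998. Signs turned only on leaving out a library: miR-148a-3p and miR-148b-3p to 0.077 and 0.11 without KO replicate 1 (ranges -0.57 to 0.077 and -0.81 to 0.11), miR-148a-5p to -0.04 and -0.63 without WT replicate 4 and KO replicate 2 (-0.63 to 0.57), and the miR-148a arm ratio to -0.13 without KO replicate 2 (-0.13 to 1.13); the cause was not tested. miR-152-3p ranged from -0.96 to -0.54. With the replicate number as a block its adjusted p was 0.984, and no member was called. Same-numbered libraries deviated together with r = -0.46, 0.35, -0.53 and 0.07 for replicates 1 to 4. Replicates 1 and 3 join a library of higher share with one of lower share, and replicates 2 and 4 join libraries of like share. These values therefore cannot tell whether the numbers pair the mice. With the library share as covariate 1 of the 475 was called, no member, and 65 had an unadjusted p under 0.05, against 20. Without a filter 66 of 1341 had one, and the 2 rarest members had log2 fold changes of 0.11 (miR-148b-5p) and 0.00 (miR-152-5p). Planned count models on the recovered tags were not run, since the deposited values are CPM rounded to 2 decimals; limma-voom, added after seeing the data, called 0. At 2 to 28 tags a library, miR-148b-5p is limited by depth.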
